A study of Mus musculus with 2 samples.

Results

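The 9 genes described here carry out the main steps by which a cell presents peptides on major histocompatibility complex (MHC) class I. They are H2-K1, H2-D1, H2-Q10, B2m, Tap1, Tap2, Tapbp, Psmb8 and Psmb9, chosen by symbol for this role out of 32285 genes counted. They were read from 2 single-cell libraries of myeloid-derived suppressor cells (MDSC), a mixed culture of immature myeloid cells. The cells came from marrow of 10-week-old female C57BL/6 animals and were cultured for 4 days in 50 ng/mL of GM-CSF plus 50 ng/mL of IL-6. One library (DAB) was grown with dabrafenib, a RAF kinase inhibitor, at 1.5 µmol/L, and the other (DMSO) with the solvent alone, so both share the cytokines and the strain. How many mice gave the cells of a library is not stated in the sources used here. With 1 library per condition there is no replicate and no test, so each value stands with an interval that covers counting error only.

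MHC class I molecules show short peptides from the cytosol to CD8+ T cells. A heavy chain (H2-K1 or H2-D1 in C57BL/6) folds with the light chain beta-2 microglobulin, made from B2m. H2-Q10 encodes a class Ib heavy chain that is known as a soluble protein made in the liver. Peptides are cut by the proteasome, in which the interferon-inducible subunits Psmb8 and Psmb9 can take the places of Psmb5 and Psmb6. The transporter made of Tap1 and Tap2 carries them into the endoplasmic reticulum, where tapasin (Tapbp) bridges it to the empty class I molecule.

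After filtering, 9032 DMSO cells and 10476 DAB cells remained, with medians of 7540 and 9550 UMIs (unique molecular identifiers, 1 per captured RNA molecule). The sums over these cells were 92409383 UMIs in DMSO and 141494920 in DAB. The libraries shared 122 cell barcodes among these cells. Itgam, which encodes the myeloid surface protein CD11b, was detected in 81.7% of the DMSO cells and 84.2% of the DAB cells, while the T cell gene Cd3e was detected in 0.144% and 0.239%. Cells fell into 26 clusters, of which 13 were named by markers. The other 13 clusters, with 54.0% of DMSO and 55.9% of DAB cells, stayed unnamed and are given by number. In 6 named classes each library had at least 200 cells, and these are called the main classes here. A B cell-like cluster (142 DMSO and 190 DAB cells) and a basophil or mast cell-like cluster (52 and 85) were also present, so the labelled MDSC were not free of other cell types. Values are UMIs per 1000000 UMIs of the cells summed (CPM). A gene was called higher or lower in DAB where the log2 ratio of DAB over DMSO was at least 0.5 in size and its 95% interval left out 0, among genes with at least 20 UMIs in both libraries together.

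Of the 9 genes, 8 lie on chromosome 17 and B2m lies on chromosome 2 (GRCm38, the build of the files' mm10). Psmb9 (chr17:34181987-34187764, minus strand), Tap1 (chr17:34187553-34197225), Psmb8 (chr17:34197721-34201454) and Tap2 (chr17:34203527-34216321) follow each other. Tapbp (chr17:33915899-33929292) and H2-K1 (chr17:33996017-34000347, minus strand) lie to one side of them. H2-D1 (chr17:35262730-35267499) and H2-Q10 (chr17:35470089-35474563) lie to the other. B2m is at chr2:122147686-122153083. All 9 are annotated as protein-coding, and all 9 had at least 20 UMIs.

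The promoters of the 3 heavy chain genes and of B2m are shown because H2-Q10 differed most between the libraries and B2m moved apart from the heavy chains. Each stretch runs from 250 bases before to 50 bases after the start annotated in RefSeq, 5′ to 3′ on the gene's strand, on GRCm38.p6. The gene positions above come from a separate annotation, whose starts can differ. The H2-D1 window lies wholly inside the H2-D1 position given there. Capitals mark matches on either strand to GGGATTCCC (a kappa B site), TTTCNNTTT (an IRF core), TTCNNNGAA (a GAS element), TGACG (a CRE core) or CCAAT. Promoters were found for 8 of the 9 genes, and Tap2 was not matched. The positions are chr17:34000298-34000597 (H2-K1, minus strand, the first of 2 starts), chr17:35262844-35263143 (H2-D1), chr17:35469839-35470138 (H2-Q10) and chr2:122147437-122147736 (B2m).
H2-K1: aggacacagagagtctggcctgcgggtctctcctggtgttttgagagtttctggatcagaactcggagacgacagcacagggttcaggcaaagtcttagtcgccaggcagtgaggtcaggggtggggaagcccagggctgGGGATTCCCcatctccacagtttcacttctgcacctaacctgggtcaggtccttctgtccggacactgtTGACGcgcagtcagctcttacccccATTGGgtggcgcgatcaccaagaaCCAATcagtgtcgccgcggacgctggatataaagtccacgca
H2-D1: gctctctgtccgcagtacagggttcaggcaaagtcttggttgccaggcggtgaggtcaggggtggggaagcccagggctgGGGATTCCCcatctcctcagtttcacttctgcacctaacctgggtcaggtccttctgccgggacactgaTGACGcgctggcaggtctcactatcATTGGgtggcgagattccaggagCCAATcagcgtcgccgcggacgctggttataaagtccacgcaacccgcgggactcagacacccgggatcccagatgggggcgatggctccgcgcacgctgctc
H2-Q10: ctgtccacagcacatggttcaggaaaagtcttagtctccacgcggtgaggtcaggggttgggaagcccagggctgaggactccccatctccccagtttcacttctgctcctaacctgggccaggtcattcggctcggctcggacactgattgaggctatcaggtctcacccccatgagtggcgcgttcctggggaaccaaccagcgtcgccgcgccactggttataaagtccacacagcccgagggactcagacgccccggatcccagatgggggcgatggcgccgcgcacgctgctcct
B2m: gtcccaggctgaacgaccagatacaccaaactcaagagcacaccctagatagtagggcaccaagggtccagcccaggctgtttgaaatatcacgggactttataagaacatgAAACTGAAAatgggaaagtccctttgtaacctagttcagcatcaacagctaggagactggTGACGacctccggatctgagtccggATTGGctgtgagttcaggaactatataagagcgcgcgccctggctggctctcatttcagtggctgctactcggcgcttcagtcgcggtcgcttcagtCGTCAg

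The H2-K1 and H2-D1 promoters each held 1 kappa B match, 1 CRE core and 2 CCAAT matches. The H2-Q10 promoter held no match to any of the 5 motifs, although its sequence follows the other 2 heavy chain promoters over long stretches. The B2m promoter held 1 IRF core, 2 CRE cores and 1 CCAAT match. Among 32851 promoters of the same length, the kappa B letters were found in 0.353%, the IRF core in 10.6%, the GAS letters in 8.30%, the CRE core in 20.8% and CCAAT in 37.4%. The windows of Tap1 and Psmb9, which start in opposite directions, share 275 of their 300 bases. The H2-K1, H2-D1 and H2-Q10 promoters all hold tttcacttc, which differs from the IRF letters only in its last base. A missing match is therefore not a missing site. These matches describe the letters only, and binding was not measured.

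Reads of the heavy chain genes can be confused with those of their close relatives. Of the distinct 90-base stretches in the annotated H2-Q10 transcripts, 9.77% were also found in another gene, mostly H2-Q7, against 1.54% for H2-K1 and 4.25% for H2-D1. With 50-base stretches the shares were 19.0%, 9.63% and 12.8%. These shares cover the whole transcripts. The reads of 5′ libraries come from near transcript starts, where the shares were not measured. Counts of these 3 genes therefore carry an uncertainty that the counting intervals leave out. Per 1000 UMIs of H2-K1 and H2-D1 together there were 30.7 H2-Q10 UMIs in DMSO granulocyte progenitor-like cells and 0.683 in DMSO immature monocyte-like cells. This ratio leaves out H2-Q7, and whether reads of H2-Q7 were counted as H2-Q10 was not tested.

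Over all cells, H2-Q10 was the only one of the 9 genes called higher in DAB, and none was called lower. Among the 16345 genes with at least 20 UMIs, 13.6% were called higher and 16.7% lower. The median log2 ratio of the 9 genes was 0.03, beside -0.03 over all genes of that count, with 5 genes above 0 and 4 below. The 9 genes thus did not move as a block between the 2 libraries, and the members with the largest differences went in opposite directions.

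Among the heavy chains, H2-K1 had 599 CPM in DMSO and 613 in DAB (log2 ratio 0.03, 95% interval 0.02 to 0.05). H2-D1 stood at 794 and 880 CPM (log2 ratio 0.15, interval 0.13 to 0.16). H2-Q10 stood at 9.38 CPM in DMSO (867 UMIs) and 23.5 in DAB (3323 UMIs) (log2 ratio 1.32, interval 1.22 to 1.43). As the mean of the CPM of single cells, so that deep cells weigh no more than shallow ones, the H2-Q10 log2 ratio was 0.57. In the summed counts the classical heavy chains were near level between the libraries. As the mean over single cells their log2 ratios were larger, 0.16 for H2-K1 and 0.29 for H2-D1. H2-Q10 was a low gene found in few cells, 1.27% of DMSO and 1.93% of DAB cells when each cell was thinned to 1500 UMIs. Unthinned, at the unequal depths of the libraries, the shares were 4.63% and 7.25%.

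B2m, the partner of all these chains, went the other way, from 992 CPM in DMSO to 724 in DAB (log2 ratio -0.45, interval -0.47 to -0.44). Tap1, a chain of the peptide transporter, went from 52.5 to 37.7 CPM (log2 ratio -0.48, interval -0.53 to -0.42). Both ratios were just short of the size needed for a call. As the mean over single cells they were smaller, -0.28 for B2m and -0.29 for Tap1. Tap2, the other transporter chain, stood at 92.1 and 94.3 CPM (0.03, -0.005 to 0.07), so the ratio of the transporter pair differed between the libraries. Tapbp stood at 126 and 119 CPM (-0.08, -0.12 to -0.05). Psmb8 stood at 303 and 328 CPM (0.12, 0.09 to 0.14) and Psmb9 at 126 and 125 (-0.01, -0.04 to 0.03).

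**Figure D1:**
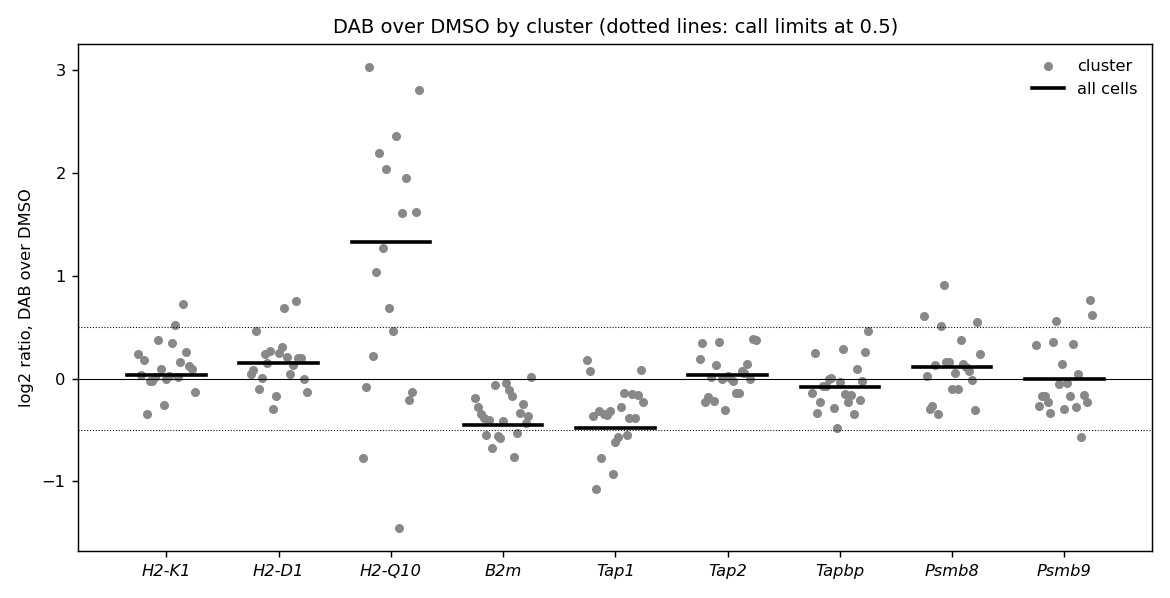
Log2 ratio of DAB over DMSO for each of the 9 genes. Each grey point is 1 of the large clusters (100 or more cells from both libraries) in which the gene had at least 20 UMIs, the black bar is the value over all cells, and dotted lines mark the call limits at 0.5. B2m points lie below 0 in 20 of 21 clusters, and H2-Q10 points run from -1.45 to 3.03.

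The lower B2m level was spread over the culture. In 21 clusters both libraries had 100 or more cells, and these are called large here. Among them B2m was below 0 in 20 and its interval lay below 0 in 18. It was called lower in 6 and higher in none. The share of all genes called lower was not taken for every cluster, and was 9.05% to 19.8% within the main classes. In these classes, the B2m log2 ratio was -0.76 (-0.81 to -0.71) in granulocyte progenitor-like cells (1036 to 611 CPM). In mature monocyte-like cells it was -0.67 (-0.72 to -0.63), from 796 to 499 CPM. It was -0.39 in mature PMN-like cells (1483 to 1131 CPM), but -0.28 and -0.25 within the clusters 2 and 18 that this class pools in unequal shares, and -0.38 in immature monocyte-like cells (1117 to 858 CPM). The chemokine-high granulocyte-like cells (-0.10) and the intermediate granulocyte-like cells (-0.06, interval -0.14 to 0.01) differed least. The median over all genes was 0.03 in the former and 0.22 in the latter. In activated dendritic cell-like cells, B2m was 1619 CPM in DMSO and 1640 in DAB (0.02, -0.05 to 0.09).

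The share of B2m among the UMIs of B2m, H2-K1 and H2-D1 does not depend on the total of a library. It was 41.6% in DMSO (95% interval 41.4 to 41.8) and 32.7% in DAB (32.5 to 32.8). In 20 of the 21 clusters the share was lower in DAB with intervals that did not overlap, and in the remaining cluster, the activated dendritic cell-like one, it was higher (38.7% and 41.2%). Mature monocyte-like cells went from 35.3% to 24.4% and granulocyte progenitor-like cells from 40.1% to 27.9%. Light and classical heavy chain transcripts were therefore in a different proportion in the 2 libraries in nearly every large cluster. The macrophage-like cells, with 97 DMSO and 72 DAB cells, stood at 52.2% and 52.1%. The heavy chain side of the share also differed between the libraries. Among the 21 clusters the interval lay above 0 in 9 for H2-K1 and 13 for H2-D1, and below 0 in 3 and 4. Each gene was called higher in 2 and lower in none, beside 11.6% to 27.8% of all genes called higher within the main classes. In chemokine-high granulocyte-like cells the log2 ratio was 0.59 for H2-D1 and -0.10 for B2m.

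**Figure D2:**
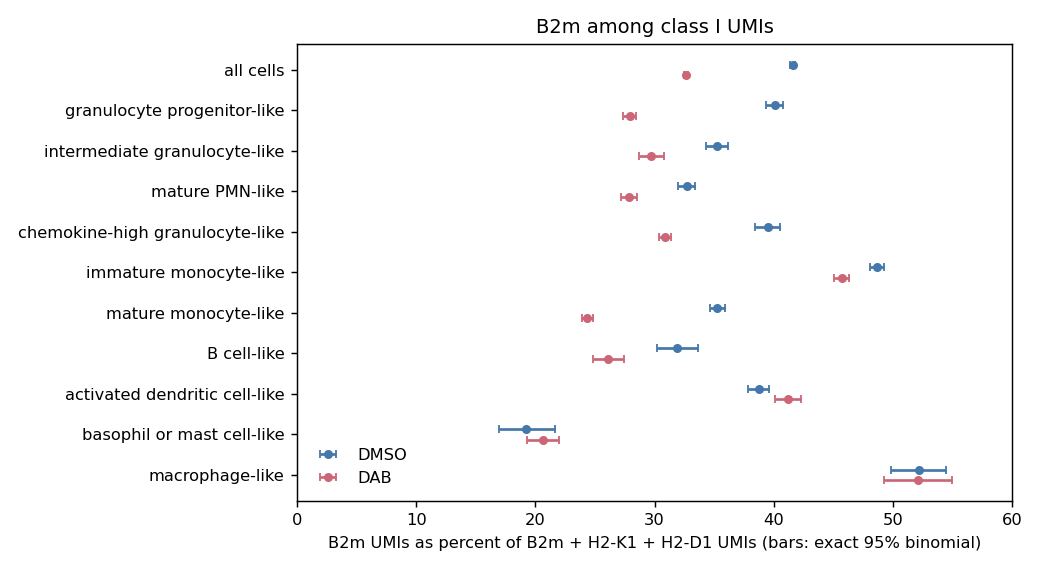
B2m UMIs as a percent of the UMIs of B2m, H2-K1 and H2-D1 together, for all cells and each named class, in DMSO (blue) and DAB (red), with exact 95% binomial intervals. Over all cells the share is 41.6% in DMSO and 32.7% in DAB, and the activated dendritic cell-like class goes the other way.

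As CPM, H2-K1 and H2-D1 had their highest levels among the main classes in mature PMN-like cells. CPM are relative to the other RNA counted, and UMIs per cell were not compared between classes. Cluster 2, the larger part of this class, had median depths of 2896.5 UMIs in DMSO and 2693 in DAB. In mature monocyte-like cells they were 19682.5 and 29479. The mature PMN-like cells held 1166 CPM of H2-K1 in DMSO and 1084 in DAB. They held 1886 and 1848 CPM of H2-D1. Both genes were apart from the next class in both libraries. The class pools clusters 2 and 18, which held 882 and 105 of its DMSO cells and 686 and 335 of its DAB cells. Within them the log2 ratio of H2-K1 was 0.03 and 0.26 and that of H2-D1 0.08 and 0.20, so the lower class values in DAB were found in neither cluster. Cluster 2 held 1269 CPM of H2-K1 in DMSO and 1296 in DAB, and 2011 and 2131 of H2-D1. Cluster 18 held 708 and 846 CPM of H2-K1 and 1333 and 1532 of H2-D1. Cluster 12, pooled in the chemokine-high granulocyte-like class, held more than cluster 18, with 1201 and 1219 CPM of H2-K1 and 1999 and 2464 of H2-D1. The order is thus one of pooled classes, which their clusters did not all follow. For H2-K1, the granulocyte progenitor-like, chemokine-high granulocyte-like and mature monocyte-like cells came next, between 691 and 801 CPM, and neighbours in that order were not apart in both libraries. The lowest H2-K1 levels were in immature monocyte-like (555 and 439 CPM) and intermediate granulocyte-like cells (365 and 472 CPM). For H2-D1, chemokine-high granulocyte-like cells came second with 1052 CPM in DMSO and 1582 in DAB (log2 ratio 0.59, interval 0.53 to 0.65), the only call for a classical heavy chain in a main class. It fell short of the call limit when the libraries were clustered without alignment (0.47), without regression (0.49) or as the mean over cells (0.35). Of the clusters pooled in this class, it was 0.30 in cluster 12, 0.68 in cluster 13 and 0.64 in cluster 24. Immature monocyte-like cells were lowest, at 622 and 581 CPM. The UMIs of H2-D1 per UMI of H2-K1 ran from 0.952 in DMSO granulocyte progenitor-like cells to 2.11 in DMSO intermediate granulocyte-like cells.

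The order of the classes for B2m was similar at the top, with mature PMN-like cells first, but differed below. Immature monocyte-like cells, low in both heavy chains, came at rank 3 for B2m. Across the 21 clusters, Pearson's r of log2 levels between H2-K1 and H2-D1 was 0.71 in DMSO and 0.78 in DAB, and between H2-K1 and B2m 0.72 and 0.55. Clusters of a library share its RNA handling, so these are descriptions. The clusters differ in depth, with medians from 2397 UMIs (cluster 12) to 19840 (cluster 15) in DMSO. Outside the listed pathway genes, the 5 genes whose cluster levels followed the sum of H2-K1, H2-D1 and B2m most closely in both libraries were Nfkbib, Alkbh6, Suds3, Gna13 and Icam1, out of 5831 genes compared. Their lower r of the 2 libraries ran from 0.79 to 0.82.

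**Figure D3:**
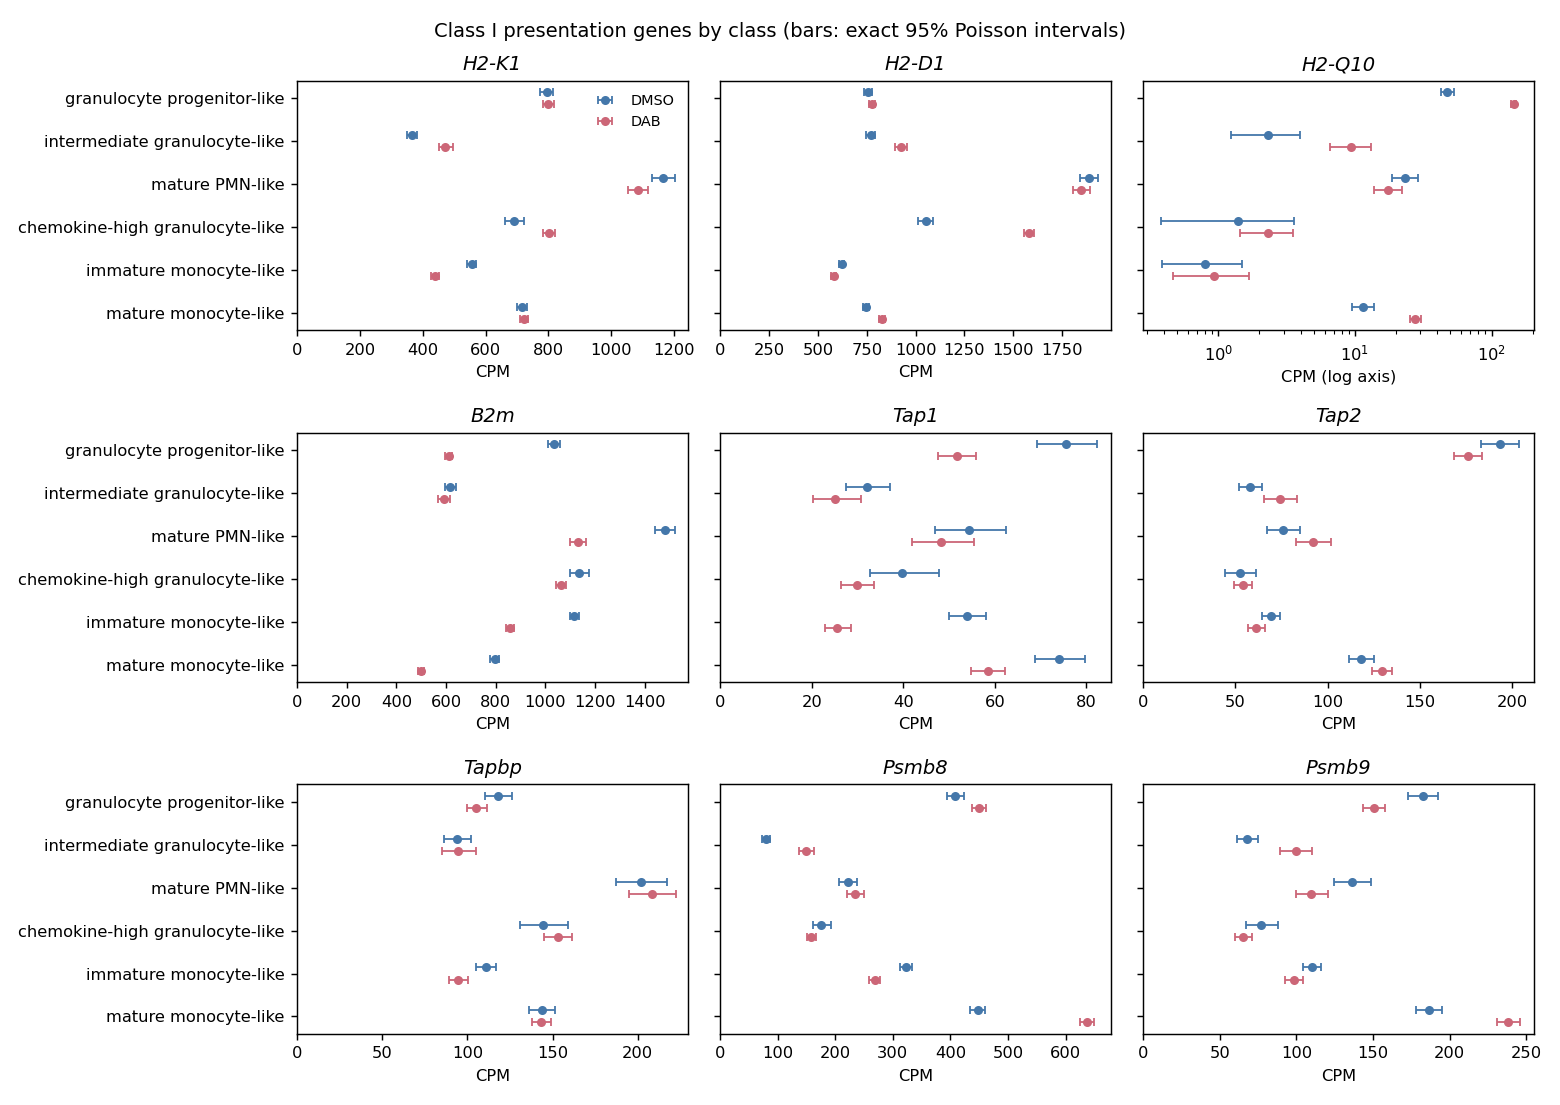
CPM of each of the 9 genes (x axes, from 0 except for H2-Q10, which has a log axis) in the 6 main classes, in DMSO (blue) and DAB (red), with exact 95% Poisson intervals. Mature PMN-like cells are highest for H2-K1, H2-D1, B2m and Tapbp, mature monocyte-like cells for Psmb8, and granulocyte progenitor-like cells for H2-Q10 and Tap2.

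H2-Q10 had a distribution of its own. Granulocyte progenitor-like cells were 3.80% of DMSO and 3.68% of DAB cells, and they held 38.5% of the H2-Q10 UMIs in DMSO and 52.4% in DAB. Their level was 47.6 CPM in DMSO (42.7 to 53.0) and 145 in DAB (138 to 152) (log2 ratio 1.61, interval 1.44 to 1.78), and was called higher. H2-Q10 was among the 10 genes that lead this cluster although it was left out of the clustering. Mature PMN-like cells came next in DMSO with 23.3 CPM and had 17.6 in DAB (-0.40, -0.88 to 0.06), with -0.08 and -0.13 within clusters 2 and 18. Mature monocyte-like cells had 11.5 and 27.7 CPM (1.26, 0.97 to 1.57) and intermediate granulocyte-like cells 2.31 and 9.43 (2.03, 1.08 to 3.07), both called higher. The last value rested on 13 and 35 UMIs and was 0.01 when the libraries were clustered without alignment. Immature monocyte-like cells were lowest, with 0.803 and 0.934 CPM from 10 and 11 UMIs. The ratio in this class depended on the clustering and ran from -0.65 to 3.43 over 8 other settings. Macrophage-like cells had 0 UMIs in DMSO, where a floor of 3 counts gives an upper limit of 4.10 CPM, and 1 in DAB.

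Thinned to 1500 UMIs a cell, 5.28% of DMSO progenitor-like cells (3.16 to 8.21) and 12.4% of DAB ones (9.23 to 16.1) had an H2-Q10 UMI. Unthinned shares were 30.03% and 49.6%, with median depths of 19840 and 29810 UMIs. In the immature monocyte-like class, where the gene was lowest, the thinned shares were 0.142% and 0.163%, and the unthinned shares 0.986% and 1.13% at median depths of 16980 and 17266 UMIs.

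The H2-Q10 UMIs of the progenitor-like class came from a minority of its cells. In DAB, 52 of 385 cells had 10 or more and held 74.7% of the class's H2-Q10 UMIs, with up to 113 in 1 cell. In DMSO, 5 of 343 cells had as many and held 22.8%, and the other UMIs were in 98 cells with 1 to 9. The cut was not scaled for depth. The 52 DAB cells had a median of 38477 UMIs, against 29008 in the other DAB cells of the class. The 52 DAB cells stood at 6.83 CPM for Elane, against 602 in the other 333 cells of the class, and at 0.975 against 89.4 CPM for Mpo. These cells were picked by their H2-Q10 count, so this is a description. Elane (neutrophil elastase) and Mpo (myeloperoxidase) are primary granule genes that define the class. Elane was detected in 9.62% of the 52 DAB cells and 34.2% of the rest, and Mpo in 3.85% and 12.01%. Each gene was thus undetected in most cells of both groups, and was detected less often in the 52 cells. Lack of the full marker set was therefore not particular to these cells. Prtn3, a further primary granule gene, was at 291 CPM in them and at 909 in the rest. It was detected in 84.6% of the 52 DAB cells and in 81.7% of the rest. Ctsg, also a marker of the class, was at 142 and 341 CPM, detected in 46.2% and 45.6%. In the 5 DMSO cells, Elane was at 624 CPM against 1079 in the other DMSO cells, and Prtn3 at 1932 against 1339. Only a minority of the 5 cells had an Elane UMI, so the 624 CPM does not stand for most of them. The same held for Ctsg. Of the other DMSO cells, 41.4% had an Elane UMI and 30.5% a Ctsg UMI. Mpo had 0 UMIs in the 5 cells and was at 138 CPM in the others.

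The class was also divided by Elane. This split was chosen because the cells with most H2-Q10 UMIs had been seen to be low in Elane, so it restates that observation as levels and is no independent support for it. Cells with an Elane UMI (141 in DMSO and 119 in DAB) had 58.9 CPM of H2-Q10 in DMSO (50.7 to 68.1) and 40.7 in DAB (34.5 to 47.6) (log2 ratio -0.53, interval -0.85 to -0.22). Cells without one (202 and 266) had 38.7 CPM in DMSO (32.8 to 45.4) and 193 in DAB (184 to 203) (log2 ratio 2.32, interval 2.08 to 2.57). Of the other genes, B2m was lower in DAB on both sides, with log2 ratios of -0.71 with and -0.79 without an Elane UMI, and so was Tap1, with -0.53 and -0.60. Tapbp was -0.50 (-0.73 to -0.28) in cells with an Elane UMI and -0.02 (-0.19 to 0.14) in those without, and Psmb9 was -0.52 (-0.71 to -0.34) and -0.22 (-0.35 to -0.09). Cells without an Elane UMI made up 58.9% of the class in DMSO and 69.1% in DAB. They held Cd34, a progenitor surface gene, at 46.1 CPM in DMSO and 115 in DAB, against 33.4 and 17.2 CPM in cells with an Elane UMI. The class markers of the cells without an Elane UMI differed between the libraries in both directions. Ctsg was at 9.93 CPM in DMSO and 97.7 in DAB, and Prtn3 at 438 and 201.

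**Figure D4:**
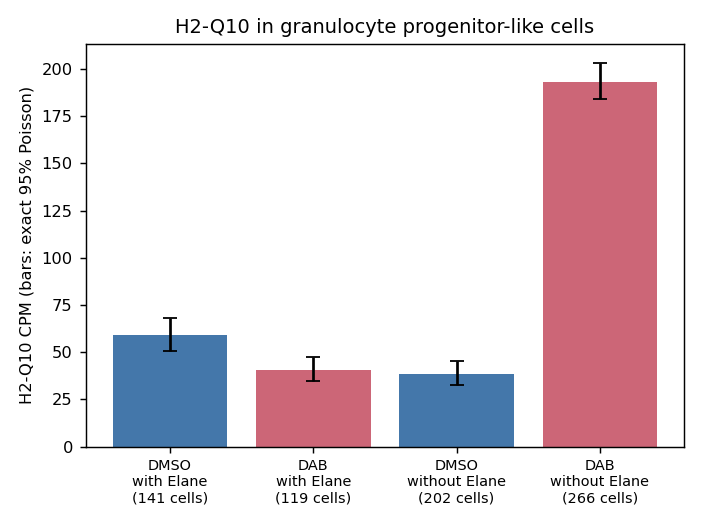
H2-Q10 CPM in granulocyte progenitor-like cells with and without an Elane UMI, in DMSO (blue) and DAB (red), with exact 95% Poisson intervals and the number of cells under each bar. The DAB cells without an Elane UMI stand at 193 CPM, and the other 3 groups between 38.7 and 58.9.

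Within the main classes, 11.6% to 27.8% of all genes were called higher and 9.05% to 19.8% lower. Across the large clusters, H2-Q10 was called higher in 10 and lower in 2 of the 18 where it had at least 20 UMIs. The 2 lower ones were cluster 1 (15.9 to 9.32 CPM) and cluster 14 (18.5 to 6.75 CPM), both with the neutrophil surface gene Ly6g among their leading genes. Cluster 19, with Ly6g also among its leading genes, went the other way without a call (1.61, -0.10 to 3.99), from 3 UMIs in DMSO and 25 in DAB. The highest ratio was in cluster 3, led by Spp1, where it rested on 5 UMIs in DMSO and 68 in DAB. By the same measure of likeness, applied here after the values had been seen, the genes closest to H2-Q10 across clusters were Cmtm7, Ctsg, Preb, Elane and Slc37a4, with a lower r of 0.56 to 0.66. Cathepsin G (Ctsg) and Elane are both primary granule genes. They are also markers that named the granulocyte progenitor-like cluster, the large cluster with most H2-Q10 in both libraries. Their likeness to H2-Q10 is thus not independent of that cluster. The cells with most H2-Q10 UMIs in DAB were nonetheless low in Elane.

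Within the main classes, 9.05% to 19.8% of all genes were called lower, and this share was not taken for every cluster. Tap1 was below 0 in 18 of the 21 large clusters and called lower in 5 of them. Of the large clusters, it differed most between the libraries in immature monocyte-like cells, with 53.9 CPM in DMSO and 25.6 in DAB (log2 ratio -1.07, interval -1.27 to -0.87). Granulocyte progenitor-like cells had 75.6 and 51.6 CPM (-0.55, -0.72 to -0.38), also called lower, with -0.49 under scaling by the median of ratios. Mature monocyte-like cells had 74.1 and 58.5 CPM (-0.34), and in mature PMN-like cells the interval held 0 (54.4 and 48.3 CPM, -0.17, -0.46 to 0.12). In macrophage-like cells Tap1 had 32 UMIs in DMSO and 11 in DAB (log2 ratio -1.35, interval -2.49 to -0.33). No 2 neighbours in the order of the main classes by Tap1 were apart in both libraries.

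Tap2 did not follow Tap1. It was called in none of the large clusters, with log2 ratios from -0.31 to 0.38. Granulocyte progenitor-like cells had the highest Tap2 level of the main classes, 193 CPM in DMSO and 176 in DAB, followed by mature monocyte-like cells with 118 and 129 CPM, each apart from the next in both libraries. The other main classes lay between 52.2 and 92.0 CPM. Across clusters, Pearson's r between Tap1 and Tap2 was 0.42 in DMSO and 0.56 in DAB. It was higher between Tap1 and H2-K1, with 0.75 and 0.80, and between Tap1 and Psmb9, with 0.70 and 0.65. Tapbp was called in no large cluster either, with log2 ratios from -0.48 to 0.46. It was highest in mature PMN-like cells, at 202 CPM in DMSO and 208 in DAB.

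Psmb8 and Psmb9 had the highest correlation of levels across clusters of any pair among the 9 genes, with r of 0.90 in DMSO and 0.92 in DAB. Among the named classes both were highest in activated dendritic cell-like cells, which held 756 CPM of Psmb8 in DMSO and 894 in DAB, and 299 and 460 CPM of Psmb9. Among the main classes, mature monocyte-like cells had most Psmb8, with 447 CPM in DMSO and 638 in DAB (log2 ratio 0.51, interval 0.46 to 0.56). Intermediate granulocyte-like cells had least Psmb8 and the largest ratio, with 79.3 and 149 CPM (0.91, 0.73 to 1.10) and 67.6 and 99.5 CPM of Psmb9 (0.56, 0.35 to 0.77). The Psmb8 call in mature monocyte-like cells lay close to the limit, with log2 ratios from 0.45 to 0.59 over 8 other settings. The Psmb9 call in intermediate granulocyte-like cells was lost in all 8, with values from 0.29 to 0.43, while Psmb8 there stayed between 0.65 and 0.97. The intermediate class also differed in size and depth, with 734 DMSO and 275 DAB cells of 6944 and 11883 median UMIs, whose part in these ratios was not tested. The immature monocyte-like cells went the other way for Psmb8, with 323 and 269 CPM (-0.27, -0.33 to -0.20). The B cell-like cells had 263 and 385 CPM of Psmb8 and 113 and 192 CPM of Psmb9 (0.77, 0.38 to 1.16).

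The proteasome holds either the constitutive or the inducible form of each catalytic subunit, so the UMIs of the 2 genes were set against each other. Psmb8 made up 56.6% of the UMIs of Psmb8 and Psmb5 in DMSO (56.2 to 57.0) and 48.9% in DAB (48.6 to 49.2). Psmb5 itself was at 232 CPM in DMSO and 343 in DAB (log2 ratio 0.56), so the share was lower in DAB although Psmb8 was not. Psmb9 made up 38.8% of the UMIs of Psmb9 and Psmb6 in DMSO (38.3 to 39.4) and 35.5% in DAB (35.1 to 35.9). For the remaining pair, Psmb10 made up 43.2% of the UMIs of Psmb10 and Psmb7 in DMSO (42.2 to 44.1) and 45.0% in DAB (44.3 to 45.7), in the other direction. These are shares of counted molecules, and genes differ in how well they are captured.

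By class, the Psmb8 share was lower in DAB in all 6 main classes, with intervals apart in 5 of them and overlapping in intermediate granulocyte-like cells (40.9% and 38.9%). Granulocyte progenitor-like cells went from 63.6% to 52.0% and immature monocyte-like cells from 53.1% to 43.1%. Mature monocyte-like cells differed less, from 68.6% to 65.8%. The Psmb9 share went from 45.1% to 31.0% in mature PMN-like cells and from 46.3% to 38.4% in granulocyte progenitor-like cells. It was 46.4% and 45.6% in mature monocyte-like cells, with overlapping intervals. The mature PMN-like class pools clusters 2 and 18 in unequal shares, and the subunit shares were not taken within them. There the Psmb9 log2 ratio was -0.27 (-0.50 to -0.04) and -0.16 (-0.55 to 0.24). Activated dendritic cell-like cells had the highest Psmb8 and Psmb9 shares of the named classes in both libraries, 84.0% and 85.5% for Psmb8 and 62.1% and 68.7% for Psmb9.

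**Figure D5:**
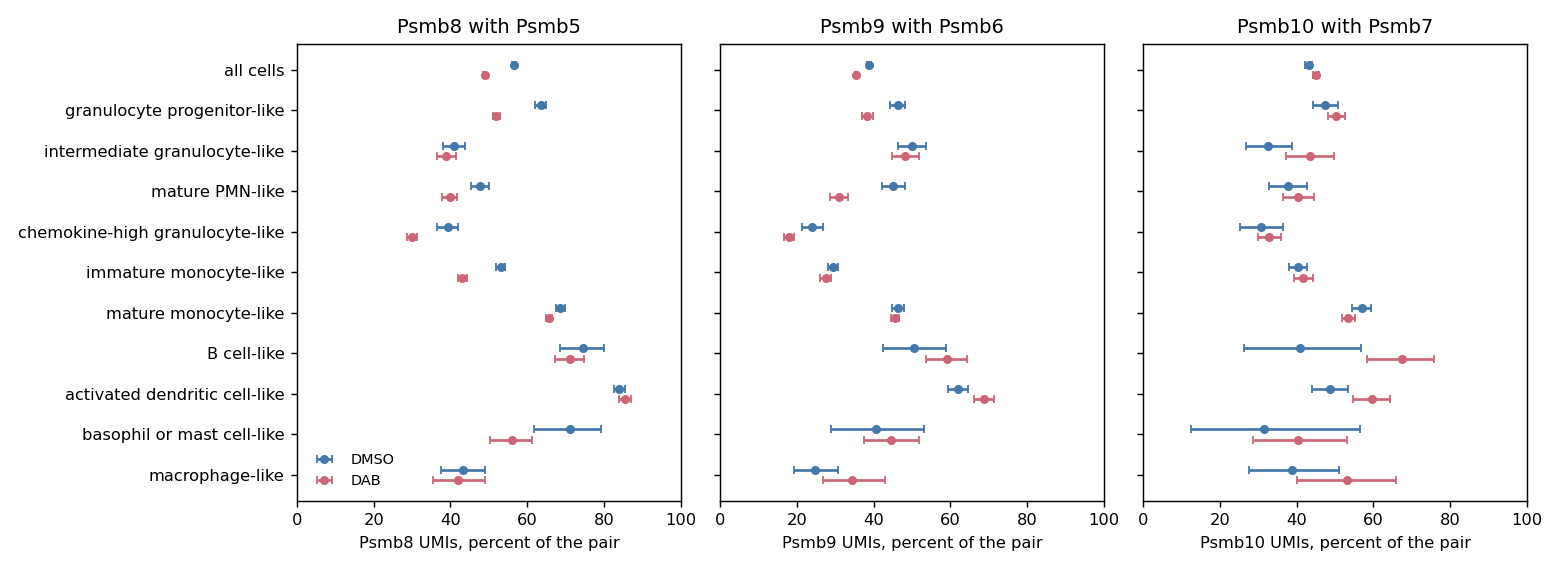
Share of the inducible subunit among the UMIs of each pair (x axes, in percent) for Psmb8 with Psmb5, Psmb9 with Psmb6 and Psmb10 with Psmb7, in all cells and each named class, DMSO in blue and DAB in red, with exact 95% binomial intervals. The Psmb8 share over all cells is 56.6% in DMSO and 48.9% in DAB, and the Psmb10 share is 43.2% and 45.0%.

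Class by class, between 0 and 3 of the 9 genes were called in either direction. In granulocyte progenitor-like cells 1 gene was called higher (H2-Q10) and 2 lower (B2m and Tap1), where 16.1% and 17.9% of all genes with enough UMIs were called. The median log2 ratio of the 9 was -0.14, beside -0.04 over all genes. In intermediate granulocyte-like cells 3 were called higher (H2-Q10, Psmb8 and Psmb9) and 0 lower, against 27.8% and 11.5% of all genes, with a median of 0.36 beside 0.22 over all genes. In mature PMN-like cells none was called, against 18.3% higher and 9.05% lower among all genes. The median was -0.10, beside 0.13 over all genes, and ran from -0.22 to 0.09 over 8 other settings. Chemokine-high granulocyte-like cells had 1 called higher (H2-D1) and 0 lower, against 11.6% and 12.5%, with a median of 0.04 beside 0.03. In immature monocyte-like cells, 8 of the 9 were below 0, with a median of -0.23 beside -0.05 over all genes. There, Tap1 was called lower and none was called higher, against 17.8% and 12.5%. In mature monocyte-like cells 2 were called higher (H2-Q10 and Psmb8) and 1 lower (B2m), against 15.9% and 19.8%. The median there was 0.13, beside -0.03 over all genes.

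Other class I heavy chain genes gave 0 called higher and 1 lower among the 11 of 13 with enough UMIs, with 8 of 11 below 0 and a median log2 ratio of -0.34. Over all genes, 13.6% were called higher and 16.7% lower, as above. The call was Mr1, which presents vitamin B metabolites, at 7.26 CPM in DMSO and 3.11 in DAB (-1.22, -1.40 to -1.05). H2-T23, the mouse Qa-1 gene, was level at 163 and 165 CPM, and H2-Q7, which shares stretches with H2-Q10, went from 39.1 to 34.2 CPM (-0.19). In immature monocyte-like cells 6 of 9 such genes were called lower, against 17.8% of all genes there, H2-Q7 among them (21.4 and 7.21 CPM, -1.57).

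Of the 8 chaperone and peptide-trimming genes, 1 was called higher and 1 lower, near the shares of 13.6% and 16.7% over all genes. Tapbpl, a tapasin relative that edits peptides, went from 7.09 to 11.1 CPM (0.65, 0.52 to 0.78). The cytosolic aminopeptidase gene Npepps went from 248 to 155 CPM (-0.67, -0.70 to -0.65). Of the 12 shared proteasome core genes 11 were above 0, with 1 called higher (Psmb3, 0.53) and a median of 0.23. Psmb10, Psme1 and Psme2, the remaining inducible subunit and the activator chains, were all above 0 and none was called. Of the 3 constitutive subunits with inducible counterparts, Psmb5 was called higher.

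Among 14 genes for factors and receptors that control class I transcription, 13 were below 0 and 2 were called lower, with a median of -0.29. That count of calls was near the 16.7% of all genes called lower. The called ones were Irf8, an interferon regulatory factor of the monocyte and dendritic lineages (52.9 and 24.7 CPM, -1.10, -1.16 to -1.04), and Stat2, part of the type I interferon signal (28.0 and 17.0 CPM, -0.72). Nlrc5, the class I transactivator, stood at 5.84 and 4.16 CPM (-0.49, -0.66 to -0.32), from 540 and 589 UMIs. In granulocyte progenitor-like cells 7 of the 14 were called lower and none higher, against 17.9% and 16.1% of all genes. Irf8 there was 32.8 CPM in DMSO and 6.26 in DAB (-2.39, -2.79 to -2.01).

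Interferon response genes showed no common direction over all cells, with 7 of 14 on each side of 0. Of the 14, 1 was called higher and 2 lower, beside 13.6% and 16.7% of all genes. Usp18, which dampens interferon signalling, was the higher one (12.1 and 22.2 CPM, 0.88), and Rsad2 (2.08 and 1.46 CPM, -0.51) was among the lower ones with Ifit3. In intermediate granulocyte-like cells all 9 of those with enough UMIs were above 0, with 5 called higher, against 27.8% of all genes, and a median of 1.04 beside 0.22 over all genes. The class II genes had 1 of 7 called lower over all cells, H2-DMb1 (76.6 and 52.5 CPM, -0.54), near the 16.7% of all genes. In immature monocyte-like cells 5 of 7 were called lower, against 17.8% of all genes, with H2-Aa at 150 CPM in DMSO and 10.3 in DAB.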

How the data were processed

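Cells were captured with the 10x Genomics 5′ v2 kit. The authors aligned the reads to mm10 with Cell Ranger 7.0.0 and deposited raw UMI counts, 106792967 over 9855 DMSO barcodes and 165506902 over 11631 DAB barcodes. The submitters' processing notes also name Seurat 4.3.0 and R 4.1.2. Since 5′ counts depend on capture of a gene's start, levels of different genes are not directly comparable. Shares and ratios of genes were therefore compared between libraries and classes.

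Barcodes over 10% mitochondrial UMIs (55 DMSO and 89 DAB) were left out, and none lay over 4 MAD. Doublets, scored against summed pairs at a rate of 0.8% per 1000 barcodes, removed 768 and 1066. Cells were clustered on Pearson residuals of 3000 genes, with cell cycle and mitochondrial share regressed out, 40 components, mutual nearest neighbours and Leiden resolution 0.9, without 61 class I, proteasome and regulator genes. A cluster was named where at least 3 markers had a log2 fold of at least 1 and its top 10 genes held more markers of that class than of any other, a rule set after the clusters had been seen. Python 3.11.15, scipy 1.17.1 and leidenalg 0.10.2 were used. Counts were summed per library and class. Levels have exact Poisson, shares exact binomial (Clopper-Pearson) and ratios exact conditional intervals, all at 95%. The ratio step was run on drawn Poisson counts with known fold changes, which is the model its intervals assume. That run checks the calculation only, and not the spread between cells or libraries. Likeness between genes is Pearson's r of log2(CPM + 10) over large clusters, among genes of at least 20 CPM. The genes named are the members, the genes of 8 further lists and the 5 most alike genes. The members and lists were chosen with earlier results of these data known. H2-T10 and Mx1 are not used here.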

Additional observations from a re-analysis of the deposited data

Results flagged for a closer look

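H2-Q10 differed in opposite directions between clusters, called higher in DAB in some and lower in others. Among the clusters with 100 or more cells from both libraries, the extremes were a log2 ratio of 3.03 in cluster 3, led by Spp1, Car4 and Cxcl3, and one of -1.45 in cluster 14, led by Retnlg, Ly6g and Mmp13. Psmb9 also went both ways, with 0.77 in cluster 20, which was B cell-like, and -0.57 in cluster 17, led by Gm26917 and Gria3. With 1 library per condition, the difference between clusters was not tested in either case.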

How the results depend on the processing

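The median log2 ratio of the 9 genes over all cells ran from 0.02 to 0.08 over its 6 alternatives, and H2-Q10 was the only gene called higher in all of them. With a call limit of 0.3 in place of 0.5, 2 genes, B2m and Tap1, were called lower rather than 0. Scaling by the median of ratios added 0.05 to every log2 ratio and turned Psmb9 to 0.04, and the mean over cells turned Tapbp to 0.05. Within classes, the median of the 9 genes moved beyond the second lowest and second highest member in mature PMN-like cells without regression of cell cycle and mitochondrial share (0.086) and in immature monocyte-like cells at a resolution of 0.5 (-0.087), and the cause was not tested. The H2-Q10 ratio in granulocyte progenitor-like cells was -0.53 in cells with an Elane UMI and 2.32 in those without, an alternative chosen after seeing the data. Over the clustering and scaling alternatives it stayed between 1.53 and 1.83, B2m in these cells between -0.76 and -0.70, and Tap1 in immature monocyte-like cells between -1.23 and -0.89. H2-Q10 in intermediate granulocyte-like cells ran from 0.01 to 1.77, and the median of the 9 genes in chemokine-high granulocyte-like cells from -0.21 to 0.10. The share of granulocyte progenitor-like cells with an H2-Q10 UMI depends on depth by construction, with 30.03% in DMSO and 49.6% in DAB unthinned and 9.76% and 20.8% at 3000 UMIs. Keeping doublets left the 3 immunoproteasome shares within their intervals. At a resolution of 1.5 no granulocyte progenitor-like class of 200 cells in each library was found, so that alternative was not run. No paired analysis was possible because there is 1 library per condition and no test.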

Other observations

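Some members stood out in cells too few for the main classes. Cluster 22, with 131 DMSO and 99 DAB cells, was led by Mt2, Ctla2a and the megakaryocyte genes Itga2b and Pf4. In it H2-K1 had 568 CPM in DMSO and 928 in DAB and H2-D1 at 614 and 1066, while H2-Q10 had 3 UMIs in DMSO and 38 in DAB (log2 ratio 3.60, interval 1.95 to 5.94). Basophil or mast cell-like cells were the only named class with B2m called higher in DAB, at 533 CPM in DMSO and 845 in DAB (log2 ratio 0.66, interval 0.44 to 0.89), from 52 and 85 cells. Macrophage-like cells had 617 CPM of H2-K1 in DMSO and 346 in DAB (-0.83, -1.07 to -0.60), and 142 and 70.2 CPM of Tapbp (-1.02, -1.56 to -0.50).

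The 5 genes outside the lists whose cluster levels followed the sum of Tap1, Tap2, Tapbp, Psmb8 and Psmb9 most closely were Ptcd2, Tmem70, Ubfd1, Mdp1 and Armc10, with a lower r of 0.85 to 0.87 over 21 clusters.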
